A study of Mus musculus with 27 samples.

Results

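RNA-seq of naive mouse embryonic stem cells (mESCs) was compared with RNA-seq of epiblast-like cells (EpiLCs), the cells that form when mESCs leave the naive state. The labels gave the groups, 2 EpiLC libraries against 2 mESC libraries, while the comparison and its gene lists were chosen with earlier results of these data known. It covered all 23604 usable genes of the expression table, of which 12513 were high enough to be tested. The 4 libraries are part of 19 RNA-seq libraries in a series of 27 samples, which also holds Epiblastoids, EpiSCs, formative pluripotent stem cells (fPSCs), and chromatin and DNA methylation data of fPSCs. All cells of the 4 libraries were wild type and total RNA was sequenced. The mESCs were grown without feeders on gelatin, in N2B27 medium with 1 uM PD035901, 3 uM Chir99021 and 1000 units/ml human LIF. The EpiLCs were grown in N2B27 to which KSR (1%), bFgf2 (12 ng/ml) and Activin A (20 ng/ml) had been added, for 48 h by the methods of the study. PD035901, Chir99021 and LIF were thus all withdrawn, and KSR, Activin A and bFgf2 added, between one group and the other, so the separate part of each agent cannot be told apart. The labels do not name the mESC line, and nothing says that replicates 1 and 2 were separate cultures. P-values therefore measure the spread between libraries, which within mESCs and within EpiLCs may be technical. This spread was estimated together with the 2 EpiSC and 7 long-term fPSC libraries. These 7 libraries differ in mESC line of origin, passage, deposit and labelled medium, so the shared spread also holds such differences. With only the first deposit in the fit, 4830 genes passed the threshold given below, against 3706 in the full fit.

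By way of background, naive mESCs correspond to the epiblast of the blastocyst before it implants. In 2i/LIF medium, PD035901 blocks MEK and so the ERK pathway, Chir99021 blocks the kinase GSK3 and so stabilizes beta-catenin, the effector of Wnt signals, and LIF acts through its receptor and the transcription factor STAT3. When these are removed and FGF and Activin signals act, the naive transcription factors are switched off while Oct4 (Pou5f1) stays on, new DNA methylation enzymes appear, and the cells become competent to respond to signals for the germ layers and germ cells. This transient state between naive mESCs and the primed EpiSCs is called formative.

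The 3 marker genes of the comparison were as the labels have it. Pou3f1 (Oct6), a POU transcription factor of the formative epiblast, was at 0.467 and 0.149 FPKM (mapped fragments relative to transcript length and to all fragments mapped in the library) in mESCs and at 111 and 95.2 FPKM in EpiLCs. Dnmt3a, a de novo DNA methyltransferase (mm9 chr12:3806007-3914443, plus strand), was at 2.73 and 0.404 FPKM in mESCs and at 117 and 107 FPKM in EpiLCs. Zfp42 (Rex1), a zinc finger protein used to mark naive cells (mm9 chr8:44380422-44392363, minus strand), was at 347 and 384 FPKM in mESCs and at 7.80 and 11.3 FPKM in EpiLCs. The groups of libraries were far apart for all 3 genes. On the scale of log2(FPKM + 1), which is used for every log2 difference given here as EpiLCs minus mESCs, Pou3f1 rose by 6.32 (SE 0.45, limma adjusted p = 3.3e-07), Dnmt3a rose by 5.62 (SE 0.44, limma adjusted p = 8.26e-07) and Zfp42 fell by 5.13 (SE 0.18, limma adjusted p = 5.83e-10).

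Promoter sequences of genes whose values are described further on are shown first, with a motif marked in each. Whether the change of medium acts through these motifs was not tested. They are windows of 60 bases from the promoter table of RefSeq on GRCm38.p6, which reaches from 250 bases before to 50 bases after each start site, and they are written 5′ to 3′ on the strand of the gene. The first 4 were picked, among 6 promoters of contractile genes with the motif, because the genes rose in EpiLCs, and capitals mark the CArG box, the motif bound by serum response factor. Myl9 lies at chr2:156775278-156775337 on the plus strand, Acta1 at chr8:123894814-123894873 on the minus strand, Cnn2 at chr10:79988519-79988578 on the plus strand and Vcl at chr14:20929148-20929207 on the plus strand.
Myl9: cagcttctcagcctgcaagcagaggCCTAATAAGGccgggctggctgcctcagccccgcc
Acta1: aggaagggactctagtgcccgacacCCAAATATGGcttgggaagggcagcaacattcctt
Cnn2: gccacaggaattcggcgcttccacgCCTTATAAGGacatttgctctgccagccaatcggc
Vcl: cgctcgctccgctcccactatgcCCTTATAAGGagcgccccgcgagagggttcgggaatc
The other 2 windows are from Sp5, a target of Wnt signals that fell (chr2:70474792-70474851, plus strand), where capitals mark ATCAAAG, the TCF/LEF motif, read on the opposite strand, and from Hmgcs1, an enzyme of cholesterol synthesis that rose (chr13:119690188-119690247, plus strand), where capitals mark TCACNCCAC, a sterol response element.
Sp5: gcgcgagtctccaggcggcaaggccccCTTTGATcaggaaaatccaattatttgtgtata
Hmgcs1: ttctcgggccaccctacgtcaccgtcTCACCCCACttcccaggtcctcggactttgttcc

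Each motif was searched on both strands of all 32851 promoters of the table. The CArG box was found in 28.6% of the 21 promoters of the contractile list and in 1.63% of all promoters (1.24% for genes tested and not called). ATCAAAG was found in 1 of 18 promoters of Wnt target genes (5.56%), that of Sp5, and in 3.73% of all (2.55% for genes tested and not called). TCACNCCAC was found in 1 of the 20 promoters of the cholesterol list (5.00%), that of Hmgcs1, and in 1.24% of all (1.06% for genes tested and not called). A single promoter does not measure a share. The E-box CACGTG, to which factors of the Tfeb family bind, was found in 32.0% of the 25 promoters of the lysosome list and in 7.15% of all (9.72% for genes tested and not called). These matches describe the letters of the sequence and are not measured binding.

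FPKM summed to 393821 and 414727 in the mESC libraries and to 320918 and 383760 in the EpiLC libraries, and 10553 to 10907 genes reached 1 FPKM in each. Depth cannot be read from FPKM and is unknown. Over the tested genes, the log2 values of the mESC libraries correlated with Pearson's r = 0.977 and those of the EpiLC libraries with r = 0.975, against 0.839 to 0.862 for a library of one group and a library of the other (these correlations are across genes, which are not independent replicates).

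Of the 12513 genes, 1523 rose in EpiLCs (12.2%) and 2183 fell (17.4%), 3706 together (29.6%), at a Benjamini-Hochberg adjusted p under 0.05 in limma and a difference of 1.5-fold or more. The median difference was 1.20 among the genes that rose and −1.31 among those that fell, and 76 genes rose and 164 fell by 3 or more on the log2 scale. In 31.3% of all tested genes both EpiLC libraries lay above both mESC libraries, and in 36.8% both lay below. FPKM depends on the total of each library. When the libraries were scaled to their upper quartile instead, which moved the median of all genes from −0.06 to 0.04, 1944 genes rose (15.5%) and 1933 fell (15.4%), so the share of calls that were higher went from 41.1% to 50.1%. Of the calls, 1522 of the 1523 higher and 1933 of the 2183 lower were also made on the second scale. With any 1 library left out, 752 of the 1523 rises and 1260 of the 2183 falls held in every fit that still tested the gene, and a call of this kind is named stable here. A gene had to reach 1 FPKM in 2 libraries to be tested, so a gene that is high in 1 group alone was tested because it is high there. The counts given for lists of genes are for this reason descriptions, to be read beside the 12.2% and 17.4% of all genes. In bulk samples, fewer cells of a type and less RNA per cell cannot be told apart.

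**Figure D1:**
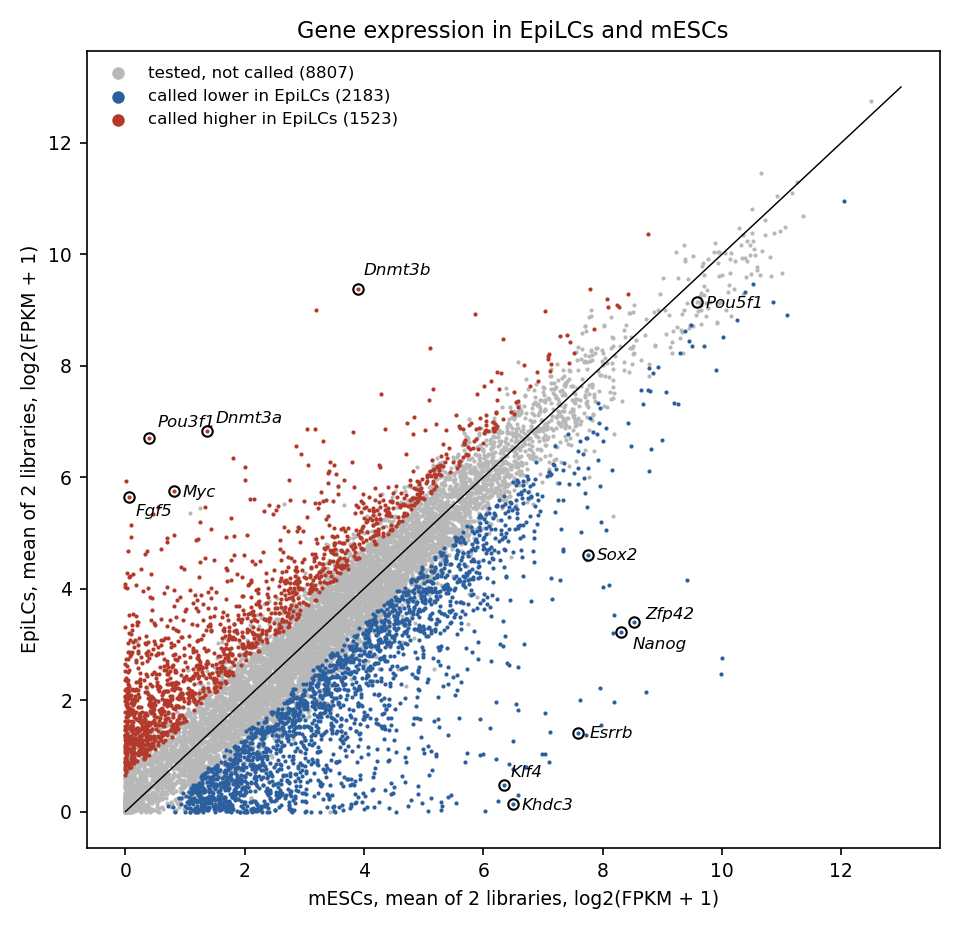
Each point is a gene, with the mean FPKM of the 2 mESC libraries on the x axis and of the 2 EpiLC libraries on the y axis, both as log2 of the mean plus 1, the line marks equal levels, and colours mark the genes called higher, called lower or not called by limma. The points labelled by name show the formative genes Pou3f1, Dnmt3a and Fgf5 at the left above the line and the naive genes Zfp42 and Nanog at the right below it.

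The list of naive transcription factors, which also holds the Akt coactivator Tcl1 and Dppa3 (Stella), fell almost as a whole. Of 15 genes on this list, 13 fell and 1 rose, with a median difference of −5.14 (−0.06 over all tested genes). Esrrb, an orphan nuclear receptor of the naive network, was at 262 and 121 FPKM in mESCs and at 1.91 and 1.41 FPKM in EpiLCs, and fell by 6.08 (SE 0.26, limma adjusted p = 3.4e-09). Klf4, a Krüppel-like factor downstream of LIF (mm9 chr4:55540013-55545347, minus strand), was at 85.6 and 76.0 FPKM in mESCs and at 0.514 and 0.273 FPKM in EpiLCs, and fell by 5.88 (SE 0.21, limma adjusted p = 6.23e-10). For both genes each mESC library was far above each EpiLC library. Nanog, a homeodomain factor that sustains self-renewal, went from 284 and 345 FPKM to 8.60 and 8.0 FPKM (−5.08), which left it among the more highly expressed of the naive factors in EpiLCs. Klf2, another Krüppel-like factor, went from 223 and 169 FPKM to 3.06 and 2.94 FPKM, Tfcp2l1, a Grainyhead-like factor, from 114 and 65.4 FPKM to 0.877 and 0.518 FPKM, and Prdm14, a repressor of FGF signalling and DNA methylation in naive cells, from 25.9 and 25.3 FPKM to 0.0564 and 0.0846 FPKM. Sox15 was the exception without a call, at 18.5 and 14.6 FPKM in mESCs and 4.11 and 5.87 FPKM in EpiLCs (a difference of −1.56, limma adjusted p = 0.0653). Gbx2, a homeodomain factor, was the 1 member with the opposite direction, at 8.59 and 6.69 FPKM in mESCs and 16.4 and 13.8 FPKM in EpiLCs (0.90, limma adjusted p = 0.0224). Its call was lost without EpiLCs replicate 1 (0.79, limma adjusted p = 0.13) and without mESCs replicate 2 (0.74, limma adjusted p = 0.15). The 13 falls were stable, although only 8 of them could still be tested without mESCs replicate 1, and 8 without mESCs replicate 2, because the gene then reached 1 FPKM in 1 library alone.

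Genes shared by all pluripotent states did not move as a block: of 12 core pluripotency genes 5 rose and 1 fell, with a median of 0.12. Pou5f1, which encodes Oct4, was at 760 and 764 FPKM in mESCs and at 392 and 732 FPKM in EpiLCs, a difference of −0.51 that did not pass the test (SE 0.42, limma adjusted p = 0.403). Sox2, the partner of Oct4 on DNA, was the member that fell, from 218 and 210 FPKM to 24.8 and 22.0 FPKM (−3.14, SE 0.27, limma adjusted p = 1.81e-06). Utf1, a chromatin factor of undifferentiated cells, was at 72.9 and 40.7 FPKM in mESCs and at 479 and 493 FPKM in EpiLCs and rose by 3.13. For Pou5f1, EpiLCs replicate 2 was close to both mESC libraries and EpiLCs replicate 1 was lower, while Sox2 was lower and Utf1 higher in both EpiLC libraries.

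The formative genes moved the other way. Of 18 genes, 16 rose and none fell, with a median of 3.24, and 15 of the 16 calls were stable. The exception was Etv4, an ETS factor, whose rise of 1.33 (limma adjusted p = 0.0187) missed the threshold with each library left out (1.24 to 1.42, limma adjusted p = 0.0559 to 0.104). Fgf5, the FGF ligand that marks the epiblast after implantation (mm9 chr5:98683203-98706049, plus strand), was at 0.0558 and 0.0191 FPKM in mESCs and at 44.0 and 54.1 FPKM in EpiLCs, and rose by 5.59 (SE 0.22, limma adjusted p = 1.7e-09). Dnmt3b, the other de novo methyltransferase (mm9 chr2:153475186-153513466, plus strand), was at 14.4 and 13.4 FPKM in mESCs and at 629 and 693 FPKM in EpiLCs, and rose by 5.47 (SE 0.23, limma adjusted p = 2.65e-09). Otx2, a homeodomain factor that directs enhancers in the formative state, was at 16.2 and 13.3 FPKM in mESCs and at 50.8 and 51.6 FPKM in EpiLCs, a smaller rise of 1.74 (SE 0.36, limma adjusted p = 0.00269). Fgf5 was thus near 0 in both mESC libraries, whereas Otx2 and Dnmt3b were already expressed there. Sox3, a SoxB1 factor close to Sox2, went from 1.03 and 0.220 FPKM to 28.1 and 30.2 FPKM and Zic2, a zinc finger factor of epiblast enhancers, from 13.7 and 5.40 FPKM to 68.7 and 64.2 FPKM. Grhl2, a Grainyhead-like factor that opens epithelial enhancers, went from 0.326 and 0.366 FPKM to 10.5 and 9.31 FPKM (3.01, limma adjusted p = 2.62e-06). The members without a call were Etv5, an ETS factor at 121 and 86.3 FPKM in mESCs and 171 and 113 FPKM in EpiLCs, and Cdh2, N-cadherin, at 0.450 and 0.101 FPKM in mESCs and 1.88 and 2.2 FPKM in EpiLCs.

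**Figure D2:**
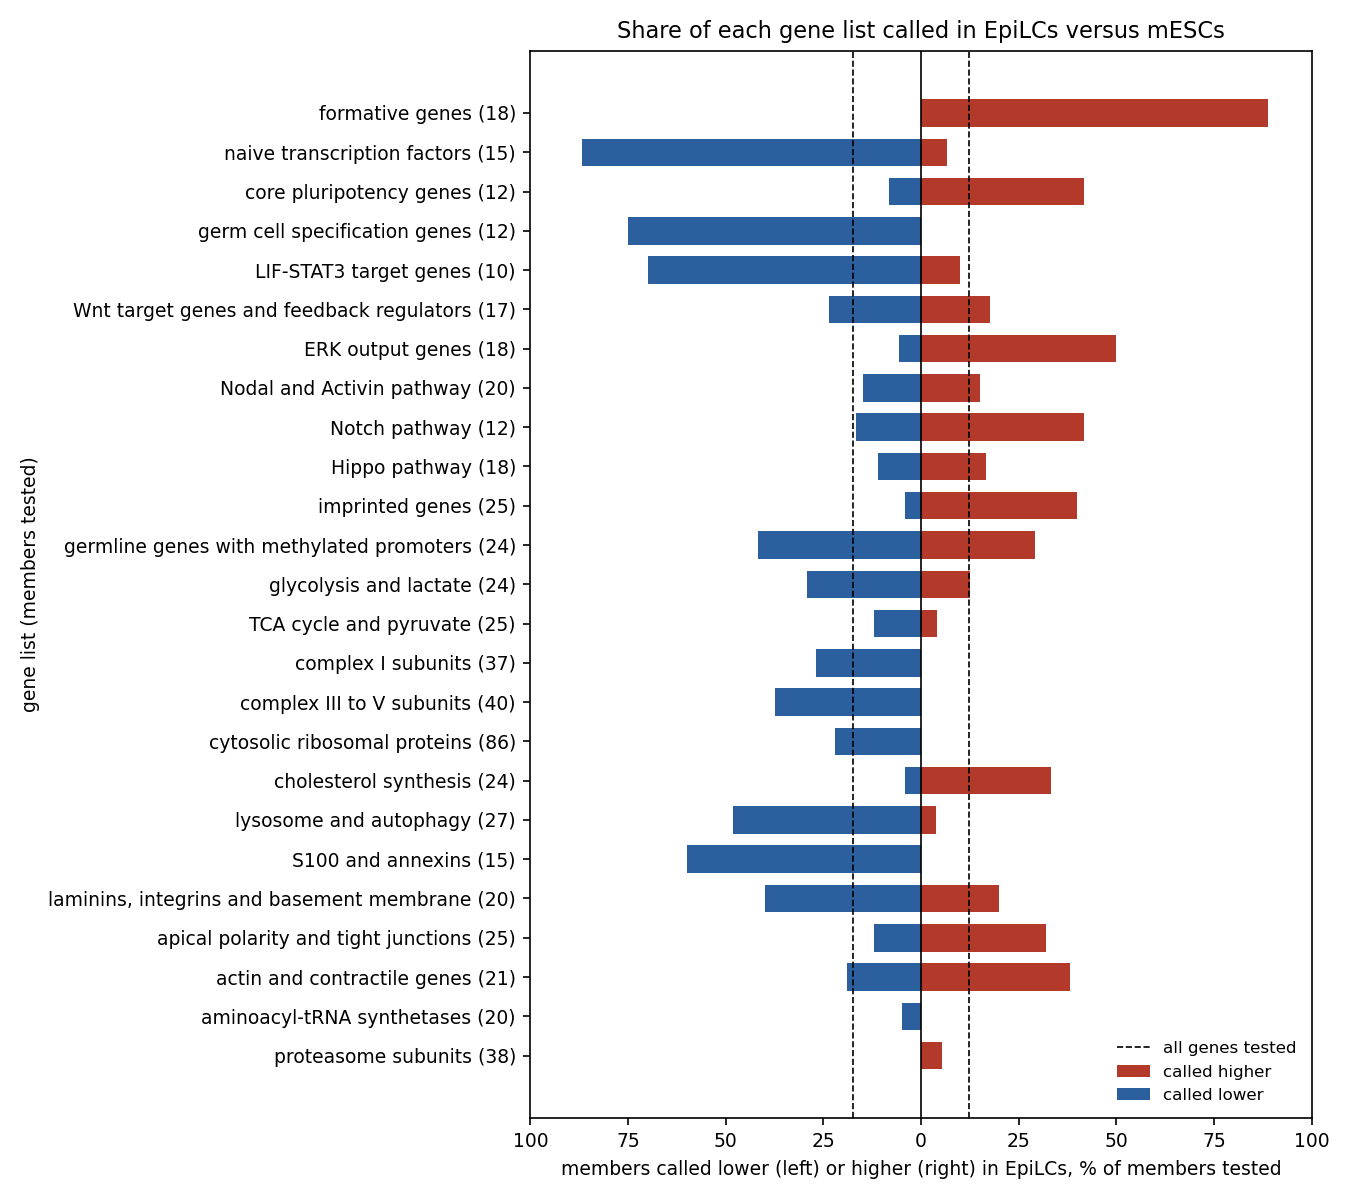
For each list of genes, the bars give the percentage of tested members called higher (right) and lower (left) in EpiLCs, and dashed lines give the values for all tested genes (12.2% and 17.4%). The list named naive transcription factors, which also holds Tcl1 and Dppa3 (86.7% lower), and the formative genes (88.9% higher) stand at the ends.

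Genes of the LIF pathway were more often lower than higher in EpiLCs, for which LIF, PD035901 and Chir99021 were all withdrawn. The part of LIF alone was not tested. Among 8 genes of the LIF receptor and its kinases none rose and 5 fell (median −0.93), and among 10 tested STAT3 target genes 7 fell and 1 rose (median −1.70). Naive factors downstream of LIF, such as Klf4, can be counted among STAT3 targets too, so these falls need not be separate from those of the naive list. Stat3 itself was at 23.2 and 17.0 FPKM in mESCs and at 2.98 and 2.59 FPKM in EpiLCs (−2.47, SE 0.22, limma adjusted p = 3.38e-06), and Il6st, the gp130 chain of the LIF receptor, was at 13.6 and 8.90 FPKM against 2.02 and 1.45 FPKM (−2.15, SE 0.26, limma adjusted p = 3.59e-05). Socs3, the feedback inhibitor that STAT3 induces (mm9 chr11:117827393-117831361, minus strand), was at 79.3 and 66.1 FPKM in mESCs and at 1.18 and 0.680 FPKM in EpiLCs (−5.26, SE 0.25, limma adjusted p = 8.29e-09). Bcl3, a coactivator of NF-kB, was at 51.4 and 34.3 FPKM in mESCs and at 0.252 and 0.201 FPKM in EpiLCs (−5.13, SE 0.20, limma adjusted p = 1.16e-09). The receptor chain and Stat3 were lower in both EpiLC libraries but still detected, and both targets were near 0. With any 1 library left out, 3 of the 5 receptor and kinase calls and 5 of the 8 target calls held.

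In the Wnt pathway, on which Chir99021 acts, genes changed in both directions. Of 17 target genes and feedback regulators, 4 fell and 3 rose, with a median of −0.15. These are 23.5% and 17.6%, beside 17.4% and 12.2% of all tested genes. Sp5, a zinc finger factor induced by beta-catenin (mm9 chr2:70312980-70315786, plus strand), was at 29.0 and 47.0 FPKM in mESCs and at 0.158 and 0.103 FPKM in EpiLCs (−5.07, SE 0.72, limma adjusted p = 0.000158). Notum, a secreted enzyme that inactivates Wnt ligands, was at 33.7 and 34.0 FPKM against 0.121 and 0.240 FPKM (−4.89, SE 0.12, limma adjusted p = 1.52e-11), and Axin2, a scaffold of the complex that degrades beta-catenin, at 23.2 and 16.3 FPKM against 3.22 and 1.91 FPKM (−2.55, SE 0.41, limma adjusted p = 0.000409). These 3 genes were lower in both EpiLC libraries, as was Cdx1, a caudal homeodomain factor (13 and 5.75 FPKM to 0 and 0.123 FPKM). Lef1, a DNA-binding partner of beta-catenin (mm9 chr3:130813389-130927274, plus strand), went the other way, from 1.52 and 1.26 FPKM to 47.7 and 23.7 FPKM (3.86, SE 0.59, limma adjusted p = 0.000292). Myc, a growth factor response gene on both the Wnt and other lists (mm9 chr15:61816946-61821929, plus strand), went from 0.829 and 0.669 FPKM to 61.1 and 44.5 FPKM (4.93, SE 0.41, limma adjusted p = 1.58e-06). Lef1 and Myc were near 1 FPKM in mESCs and well above it in both EpiLC libraries. The third rise was Nkd2, a feedback inhibitor, from 0.551 and 0.177 FPKM to 1.64 and 1.97 FPKM (1.05, limma adjusted p = 0.00405, or 0.85 and 0.0573 without mESCs replicate 2). The 4 falls were stable, although not all of them could still be tested without mESCs replicate 1 or without mESCs replicate 2. Tcf7, another partner of beta-catenin (38.3 and 27.8 FPKM against 58.4 and 46.5 FPKM), and Ccnd1, cyclin D1 (60.2 and 64.5 FPKM against 55.0 and 57.6 FPKM), were not called. Of the 14 genes that transmit the signal only Ctnnb1, beta-catenin itself, was called, at 254 and 224 FPKM in mESCs and 115 and 102 FPKM in EpiLCs (−1.13, limma adjusted p = 0.0301), and this call was lost with each library left out (−1.04 to −1.22, limma adjusted p = 0.0876 to 0.14).

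Among the Wnt receptors and their decoys, 15 Frizzled and secreted Frizzled-related genes were tested, of which 5 rose and 2 fell (median 0.54). Fzd7 went from 7.58 and 3.92 FPKM to 52.3 and 41.8 FPKM (2.88, SE 0.39) and Fzd2 from 2.34 and 2.12 FPKM to 17.7 and 21.8 FPKM (2.68, SE 0.25). Sfrp2, a secreted decoy, went from 1.21 and 0.551 FPKM to 14.5 and 12.2 FPKM (2.95, SE 0.46), while Fzd10 went from 23.8 and 20.0 FPKM to 3.36 and 1.77 FPKM (−2.72, SE 0.40). Receptors of 1 family thus changed in opposite directions, with no overlap between the groups for any of these 4 genes. Of the 7 calls 4 were stable, and 3 rises were left without mESCs replicate 2.

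Among 18 genes that report ERK activity, 9 rose and 1 fell after the MEK inhibitor was removed, with a median of 1.25. Dusp6, a phosphatase that switches ERK off (mm9 chr10:98725865-98730122, plus strand), was at 2.39 and 2.58 FPKM in mESCs and at 73.5 and 87.4 FPKM in EpiLCs (4.54, SE 0.29, limma adjusted p = 1.21e-07). Dusp4, a nuclear phosphatase of ERK, was at 0.803 and 0.104 FPKM against 39.9 and 46.5 FPKM (4.97, SE 0.46, limma adjusted p = 3.88e-06), and Spry4, a Sprouty inhibitor of receptor signalling, at 0.555 and 0.151 FPKM against 22.8 and 13.8 FPKM (3.81, SE 0.43, limma adjusted p = 2.34e-05). All 3 feedback inhibitors were high in both EpiLC libraries and low in both mESC libraries. Spry2, of the same family, was expressed in both groups (17.0 and 13.6 FPKM against 26.0 and 19.6 FPKM) and was not called. Egr1, an immediate early gene, was at 0.171 and 0.116 FPKM in mESCs and at 12.4 and 2.14 FPKM in EpiLCs, where the EpiLC libraries differed widely (2.51, limma adjusted p = 0.0604). With a single library left out, 5 of the 10 calls of this list held throughout, and the number of rises went from 9 down to 5 without EpiLCs replicate 1 and to 6 without mESCs replicate 2.

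The FGF genes had 4 rises and no fall among 9 tested (median 0.66). Besides Fgf5, Fgf15 went from 0.472 and 0.094 FPKM to 29.1 and 19.9 FPKM (4.31, SE 0.40, limma adjusted p = 4.07e-06). Fgf4, the FGF that mESCs themselves secrete, was at 97.7 and 92.5 FPKM in mESCs and at 58.6 and 58.9 FPKM in EpiLCs and was not called (−0.68, limma adjusted p = 0.409), and neither was the receptor Fgfr1 (15.5 and 10.6 FPKM against 20.9 and 15.7 FPKM). Fgf5 and Fgf15 were the members that kept their calls with any 1 library left out, and without mESCs replicate 2 they were the 2 rises that were left.

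In the pathway of the added Activin A, 3 of 20 genes rose and 3 fell, with a median of −0.09. These are 15% each, near the 12.2% and 17.4% of all tested genes. The ligand Nodal was at 35.6 and 30.6 FPKM in mESCs and at 25.7 and 17.9 FPKM in EpiLCs, and its feedback inhibitor Lefty1 at 22.2 and 16.1 FPKM against 49.9 and 24.5 FPKM, and neither was called. Among the members that changed, Pcsk6, a convertase that processes Nodal, went from 33.5 and 21 FPKM to 0.455 and 3.46 FPKM (−3.43, SE 0.46, limma adjusted p = 9.67e-05), and Smad3, a transducer of the signal, from 10.8 and 9.74 FPKM to 3.5 and 2.73 FPKM (−1.46, SE 0.27, limma adjusted p = 0.00118). Skil, an inhibitor of Smads that the pathway induces, went from 10.5 and 6.52 FPKM to 48.6 and 42.0 FPKM (2.31, SE 0.30, limma adjusted p = 6.87e-05). For Nodal and Lefty1 the groups lay close together without overlap, and for these other 3 members they lay further apart. Of the 6 calls, 4 were stable.

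**Figure D3:**
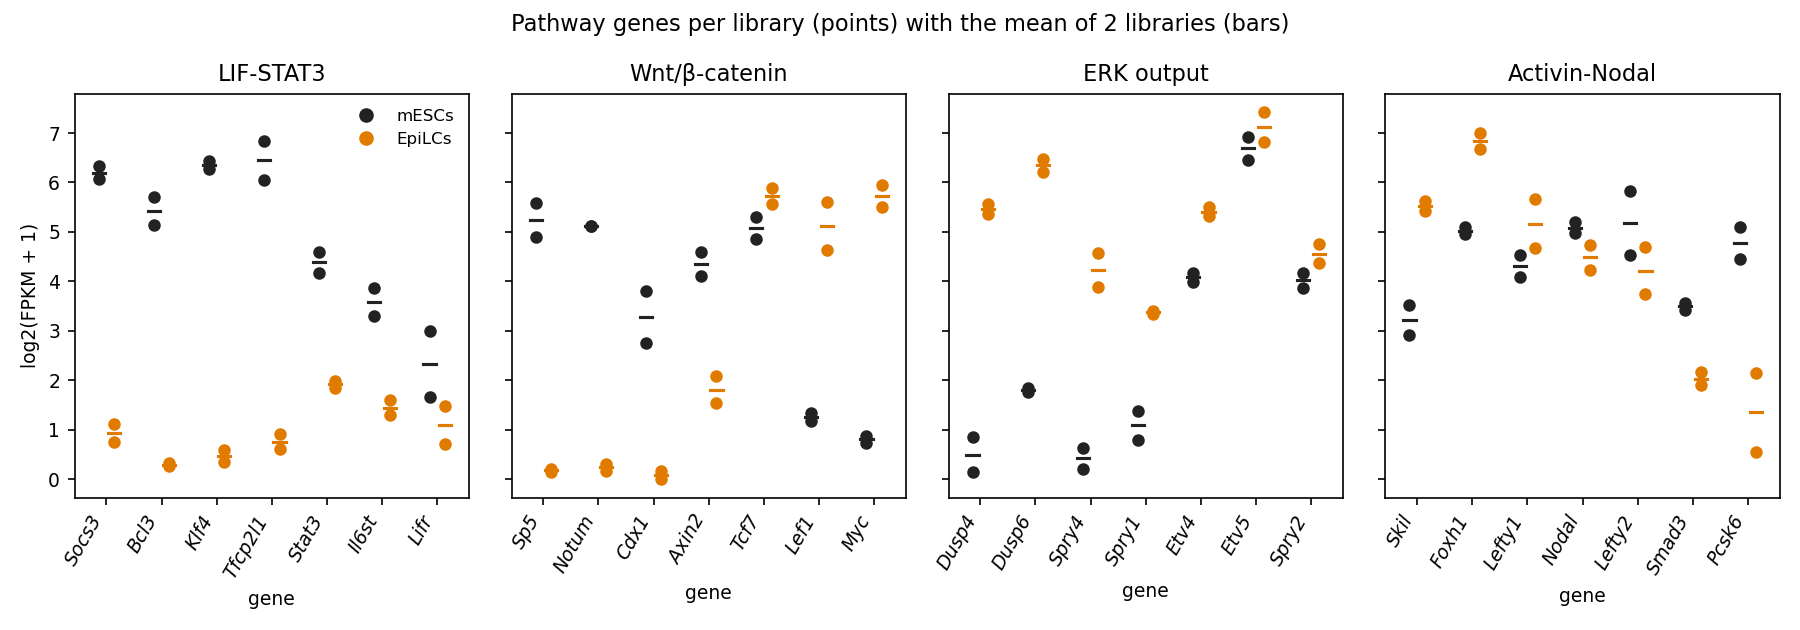
Levels of 7 genes of each of 4 pathways as log2(FPKM + 1), with 1 point for each library (black mESCs, orange EpiLCs) and short bars at the mean of the 2 libraries. Socs3, Bcl3, Sp5 and Notum drop to near 0 in EpiLCs, Dusp4, Dusp6, Lef1 and Myc rise, and the points of Etv5, Lefty2 and Lifr lie close together or overlap.

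In the Notch pathway 5 of 12 genes rose and 2 fell (median 0.76). Dll1, a Notch ligand, was at 0.0542 and 0.00318 FPKM in mESCs and at 6.53 and 4.86 FPKM in EpiLCs (2.69, SE 0.20, limma adjusted p = 4.84e-07), whereas the receptor Notch1 went from 8.17 and 5.89 FPKM to 2.55 and 1.72 FPKM (−1.35, SE 0.22, limma adjusted p = 0.000472). The target Hes1, a repressor, went from 34.0 and 39.8 FPKM to 6.46 and 4.61 FPKM (−2.55, SE 0.38), and Hes6, which opposes Hes1, from 9.28 and 6.77 FPKM to 41.5 and 49.5 FPKM (2.37, SE 0.35). The receptor Notch2 changed in the opposite direction to Notch1, from 2.82 and 1.26 FPKM to 8.47 and 4.82 FPKM (1.34, limma adjusted p = 0.0352), and its call was lost without EpiLCs replicate 1 (0.99, limma adjusted p = 0.238) and without mESCs replicate 2 (0.96, limma adjusted p = 0.246). The pathway thus held genes of each kind, receptors and Hes genes, that changed in opposite directions. Of the 7 calls 5 were stable, and 3 rises were left without EpiLCs replicate 1 and 3 without mESCs replicate 2. Of 13 BMP genes 1 rose and 3 fell (7.69% and 23.1%, beside 12.2% and 17.4% of all tested genes). The rise was the receptor Bmpr1a (8.60 and 8.66 FPKM against 19.7 and 17.5 FPKM). Of the 3 falls 1 was stable, and it could not be tested without mESCs replicate 1. Of 18 Hippo genes 3 rose and 2 fell (16.7% and 11.1%), near the shares of all tested genes. The DNA-binding partners of Yap parted: Tead4 went from 13.2 and 9.17 FPKM to 0.490 and 0.369 FPKM (−3.07, SE 0.49) and Tead2 from 49.0 and 50.9 FPKM to 104 and 88.0 FPKM (0.92, SE 0.18). Of these 5 calls 3 were stable, and Yap1 was not called (27.4 and 36.0 FPKM against 47.3 and 40.5 FPKM).

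Among 10 enzymes and cofactors of DNA methylation, 3 rose and 2 fell, and all 5 calls held with any 1 library left out where the gene was tested. Beside Dnmt3a and Dnmt3b, Dnmt3l, the cofactor without enzyme activity, went from 17.5 and 4.18 FPKM to 71.6 and 40.6 FPKM (2.49, SE 0.42, limma adjusted p = 0.000635). Tet2, which oxidizes methylcytosine, went from 7.39 and 4.25 FPKM to 0.270 and 0.159 FPKM (−2.45, SE 0.20, limma adjusted p = 1.29e-06), and Zfp57, which protects methylation at imprinted loci, from 70.1 and 94.5 FPKM to 18.6 and 16.8 FPKM (−2.14, SE 0.36, limma adjusted p = 0.000652). The maintenance enzyme Dnmt1 was at 68.7 and 52.3 FPKM in mESCs and 49.2 and 41.1 FPKM in EpiLCs and was not called, and neither were its partner Uhrf1 or Tet1. The RNAs that rose were those of the de novo enzymes and of the cofactor Dnmt3l, and the largest difference within the list was that of Dnmt3a. Of 25 Polycomb genes 3 rose and 4 fell (12% and 16%), near the 12.2% and 17.4% of all tested genes. Suz12, a subunit of the complex that methylates histone H3 at lysine 27, went from 62.8 and 67.6 FPKM to 25.5 and 29.0 FPKM (−1.23, SE 0.25). The catalytic subunit Ezh2 was not called (52.7 and 62.5 FPKM against 34.2 and 30.8 FPKM). Of these 7 Polycomb calls, 2 held with any 1 library left out.

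Genes of germ cell specification were lower in EpiLCs: 9 of 12 tested fell and none rose, with a median of −3.65, and their summed level went from 914 and 1184 FPKM to 162 and 142 FPKM. Kit, the receptor of stem cell factor, was at 69.0 and 67.0 FPKM in mESCs and at 2.15 and 1.5 FPKM in EpiLCs (−4.62, SE 0.57, limma adjusted p = 4.71e-05). Tfap2c, an AP-2 factor of germ cell precursors, was at 23.4 and 19.4 FPKM against 0.244 and 0.280 FPKM (−4.14, SE 0.26, limma adjusted p = 9.82e-08), and Dppa3 (Stella) at 56.4 and 194 FPKM against 0.958 and 1.15 FPKM (−5.69, SE 0.38, limma adjusted p = 1.64e-07). The mESC libraries differed from each other for Dppa3, and both were far above the EpiLC libraries. Prdm14, Tcl1 and Dppa3 are also on the list of naive factors. Of the 9 falls 8 were stable, while 6 were called without mESCs replicate 1 and 5 without mESCs replicate 2, where some genes no longer reached the level for a test. The germline genes known to carry methylated promoters in somatic cells split, with 7 of 24 higher and 10 lower. Mael, a factor of transposon silencing, went from 1.47 and 1.60 FPKM to 18.7 and 26.3 FPKM (3.20, SE 0.14, limma adjusted p = 4.67e-09) and Ddx4, the Vasa helicase, from 1.40 and 0.982 FPKM to 5.90 and 6.66 FPKM (1.74, SE 0.12). Dazl, an RNA-binding protein of germ cells, went from 20.9 and 36.4 FPKM to 5.59 and 2.96 FPKM (−2.49, SE 0.24). Of these 17 calls, 15 held with any 1 library left out.

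Of 25 imprinted genes 10 rose and 1 fell, with a median of 0.90. Mest, expressed from the paternal allele (mm9 chr6:30673547-30698457, plus strand), was at 10 and 6.0 FPKM in mESCs and at 120 and 110 FPKM in EpiLCs (3.73, SE 0.61, limma adjusted p = 0.000494). Snrpn, a splicing protein also expressed from the paternal allele, was at 32.0 and 34.4 FPKM against 154 and 177 FPKM (2.28, SE 0.28, limma adjusted p = 5.36e-05). The member that fell was Plagl1, a zinc finger factor (2.89 and 1.69 FPKM to 0.171 and 0.0598 FPKM). Allele-specific expression was not measured. With any 1 library left out 5 of the 11 calls held, and 4 rises were called without EpiLCs replicate 1 and 4 without mESCs replicate 2. H19 and Igf2, at 0 or under 0.2 FPKM in mESCs and at 0.558 to 2.14 FPKM in EpiLCs, were not called.

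In energy metabolism, several genes of glucose uptake and of its first steps fell. Of 24 glycolysis and lactate genes 7 fell and 3 rose (median −0.23). Hk1, a hexokinase (mm9 chr10:61731603-61842656, minus strand), went from 62.9 and 55.4 FPKM to 5.84 and 5.54 FPKM (−3.16, SE 0.27, limma adjusted p = 1.72e-06), Pfkp, a phosphofructokinase, from 128 and 61.8 FPKM to 5.02 and 5.09 FPKM (−3.89, SE 0.49, limma adjusted p = 5.3e-05), and the glucose carrier Slc2a3 from 257 and 272 FPKM to 30.5 and 33.9 FPKM (−3.0, SE 0.70, limma adjusted p = 0.00572). These genes were lower in both EpiLC libraries. Slc16a3, the lactate exporter MCT4, was the large rise, from 31.8 and 35 FPKM to 305 and 329 FPKM (3.21, SE 0.67, limma adjusted p = 0.00297). Ldhb, the lactate dehydrogenase subunit of oxidative tissues, went from 328 and 546 FPKM to 54.2 and 81.6 FPKM (−2.65, SE 0.38), while Ldha (976 and 670 FPKM against 670 and 1171 FPKM) and the glucose carrier Slc2a1 (158 and 143 FPKM against 150 and 166 FPKM) were not called. Of the 10 calls, 6 held with any 1 library left out.

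Tdh, threonine dehydrogenase, on which mouse ES cells rely for one-carbon units (mm9 chr14:64111184-64127929, minus strand), was at 272 and 303 FPKM in mESCs and at 7.31 and 9.08 FPKM in EpiLCs (−4.98, SE 0.47, limma adjusted p = 4.22e-06). Mthfd2, a mitochondrial folate enzyme of the same list, went from 47.4 and 44.1 FPKM to 130 and 143 FPKM (1.56, SE 0.24, limma adjusted p = 0.000322). The 19 genes of threonine, serine and one-carbon metabolism had 2 rises and 4 falls in all, 3 of them stable. Cpt1a, which brings fatty acids into mitochondria for oxidation, went from 34.6 and 24.7 FPKM to 2.58 and 1.74 FPKM (−3.27, SE 0.26, limma adjusted p = 8.94e-07), on a list of 16 fatty acid genes with 2 rises and 4 falls, of which the fall of Cpt1a was the stable one. Idh2, the mitochondrial isocitrate dehydrogenase, went from 125 and 110 FPKM to 29.9 and 39.2 FPKM (−1.75, SE 0.23), on a list of 25 TCA cycle and pyruvate genes with 1 rise and 3 falls (median −0.45), of which the fall of Idh2 was the stable one.

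Subunits of the respiratory chain and of the ribosome were lower by a smaller and less stable amount. Of 37 complex I subunits none rose and 10 fell (median −0.76), of 40 subunits of complexes III to V none rose and 15 fell (median −0.73), and of 86 cytosolic ribosomal proteins none rose and 19 fell (median −0.70). The counts of falls depended on single libraries: without EpiLCs replicate 1 they were 2, 3 and 6, without EpiLCs replicate 2 18, 18 and 26, without mESCs replicate 1 5, 9 and 15, and without mESCs replicate 2 3, 5 and 5. Summed over the ribosomal proteins the level was 79273 and 88615 FPKM in mESCs and 41609 and 67126 FPKM in EpiLCs, with EpiLCs replicate 1 the lowest. Members with stable calls were Cox7a1, a subunit of cytochrome oxidase (45.7 and 36.8 FPKM to 1.28 and 1.88 FPKM, −4.04), Ndufa3, a complex I subunit (45.7 and 71.5 FPKM to 8.80 and 14.2 FPKM, −2.25), and Rps28, of the small ribosomal subunit (891 and 1024 FPKM to 178 and 303 FPKM, −2.04). Ribosomal protein genes have many near-identical pseudogenes that can share their reads, so their levels are uncertain. Mitochondrial ribosomal proteins (4 higher and 6 lower of 77), aminoacyl-tRNA synthetases (0 and 1 of 20) and proteasome subunits (2 and 0 of 38) had few calls, and the stable one among them was Psmb10, a subunit of the immunoproteasome, which went from 9.01 and 9.63 FPKM to 49.4 and 45.3 FPKM (2.23, SE 0.29).

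Of 24 cholesterol synthesis genes 8 rose and 1 fell, with a median of 0.68, and on the upper-quartile scale 13 rose and 1 fell. Hmgcs1, whose promoter window is shown above, was at 71.4 and 76.6 FPKM in mESCs and at 158 and 175 FPKM in EpiLCs (1.16, SE 0.27, limma adjusted p = 0.00583). Nsdhl, a sterol dehydrogenase, was at 13.8 and 15.2 FPKM against 23.7 and 27.1 FPKM (0.77, SE 0.17, limma adjusted p = 0.00411), and Ebp, a sterol isomerase, fell from 17.2 and 19.2 FPKM to 6.03 and 6.92 FPKM (−1.36, SE 0.19). The groups did not overlap for these 3 genes. Of the 9 calls, 4 held with any 1 library left out, and the rises numbered 5 without mESCs replicate 2.

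Lysosome genes were lower. Of 27 lysosome and autophagy genes 13 fell and 1 rose (median −0.73), and on the upper-quartile scale 11 fell and 2 rose. Tfeb, the transcription factor that drives lysosome genes, was at 20.2 and 17.4 FPKM in mESCs and at 2.47 and 2.27 FPKM in EpiLCs (−2.55, SE 0.23, limma adjusted p = 3.34e-06). Glb1, the lysosomal beta-galactosidase, was at 50.7 and 46.0 FPKM against 9.03 and 8.40 FPKM (−2.34, SE 0.23, limma adjusted p = 5.69e-06), and Ctsb, the protease cathepsin B (mm9 chr14:63741302-63764758, plus strand), at 67.6 and 60.1 FPKM against 12.1 and 15.7 FPKM (−2.13). All of these mESC libraries were above all EpiLC libraries. Tfe3, a factor of the Tfeb family, was not called (30.3 and 27.1 FPKM against 60.6 and 51.3 FPKM, limma adjusted p = 0.229). Without EpiLCs replicate 1, mESCs replicate 1 or mESCs replicate 2 there were 8 falls each, and 8 of the 14 calls held throughout. Of 9 tested cathepsins 5 fell and 1 rose, and 3 falls were left without EpiLCs replicate 1, 3 without mESCs replicate 1 and 3 without mESCs replicate 2, while the rise was called only with all 4 libraries or without mESCs replicate 1.

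Cell cycle genes changed in both directions. Of 23 cyclins and CDK inhibitors 4 rose and 7 fell, and 7 of the 11 calls were stable. These are 17.4% and 30.4%, beside the 12.2% and 17.4% of all tested genes. Ccne1, cyclin E1, went from 35 and 37.1 FPKM to 116 and 128 FPKM (1.73, SE 0.27, limma adjusted p = 0.000354) and Ccna2, cyclin A2, from 54.3 and 58.5 FPKM to 96.5 and 103 FPKM (0.81, SE 0.18, limma adjusted p = 0.00453). Cdkn1a, the inhibitor p21 and a p53 target, went from 103 and 124 FPKM to 23.6 and 18.8 FPKM (−2.37, SE 0.50, limma adjusted p = 0.00319), and Cdkn2a, of the Ink4a locus, from 55.6 and 69.4 FPKM to 11.5 and 14.1 FPKM (−2.2, SE 0.34). Other members of both kinds changed the other way. The inhibitor Cdkn1c (p57) went from 1.67 and 1.53 FPKM to 14.4 and 14.4 FPKM (2.57, limma adjusted p = 0.00796, or 2.53 and 0.0511 without mESCs replicate 2), and Ccnd3, cyclin D3, from 109 and 131 FPKM to 52.2 and 42.7 FPKM (−1.32, limma adjusted p = 0.0464), a call that was lost with each library left out (−1.18 to −1.47, limma adjusted p = 0.109 to 0.197). Cdkn1a was 1 of the 2 called among 16 p53 targets, so the list had no common direction (median 0.04). Bcl2l11 (Bim), which promotes apoptosis, went from 2.11 and 1.10 FPKM to 11.5 and 11.8 FPKM (2.31, SE 0.37), with 3 rises and 1 fall among 13 Bcl2 family genes, of which the rise of Bcl2l11 was the stable one. Pmaip1 (Noxa), of the same kind, was at 1.40 and 0.851 FPKM in mESCs and at 40.0 and 39.9 FPKM in EpiLCs and was not called (4.28, limma adjusted p = 0.0576, or 0.000217 in limma fitted to these 4 libraries alone).

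Of 17 cadherins and EMT factors 3 rose and 2 fell (median 0.12), and all 5 calls were stable. These are 17.6% and 11.8%, near the 12.2% and 17.4% of all tested genes, and the 3 rises were epithelial genes. Epcam, an epithelial adhesion molecule (mm9 chr17:88035319-88050446, plus strand), was at 11.4 and 14.7 FPKM in mESCs and at 92.4 and 130 FPKM in EpiLCs (2.99, SE 0.23, limma adjusted p = 8.1e-07). Esrp1, a splicing factor of epithelia, was at 0.0976 and 0.0942 FPKM against 17.3 and 19.1 FPKM (4.13, SE 0.25, limma adjusted p = 8.57e-08), and the third rise was Grhl2, given above. The falls were Fn1, fibronectin, from 172 and 108 FPKM to 20.7 and 13.7 FPKM (−2.94, SE 0.31, limma adjusted p = 1.35e-05), and Zeb1, a repressor of epithelial genes, from 2.60 and 1.98 FPKM to 0.0896 and 0.0439 FPKM (−1.62, SE 0.15, limma adjusted p = 3.01e-06). Cdh1, E-cadherin, was abundant in all 4 libraries (184 and 133 FPKM against 199 and 176 FPKM) and was not called. The epithelial genes Cdh3, Esrp2 and Ovol2 were tested and not called either.

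Of 25 genes of apical polarity and tight junctions 8 rose and 3 fell (median 0.29, 8 of 11 calls stable). Cldn6, a claudin of early embryos, went from 5.38 and 12.4 FPKM to 93.3 and 105 FPKM (3.44, SE 0.29, limma adjusted p = 1.81e-06) and Crb3, an apical determinant, from 9.07 and 6.74 FPKM to 18.6 and 24.8 FPKM (1.35, SE 0.30, limma adjusted p = 0.00403). Jam2, a junctional adhesion molecule, was the largest fall, from 65 and 63.6 FPKM to 0 and 0.0246 FPKM (−6.01, SE 0.14, limma adjusted p = 1.29e-11), and Cldn4 went from 69.4 and 67.9 FPKM to 19.9 and 31.9 FPKM (−1.41, SE 0.30). Members of the claudin family thus changed in both directions. Rab25, a small GTPase of apical recycling, went from 3.69 and 6.43 FPKM to 15.6 and 28.3 FPKM (1.90, SE 0.31).

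Basement membrane genes were more often lower than higher, with 8 falls and 4 rises among 20 laminins, integrins and their partners (median −0.56). Nid1, nidogen (mm9 chr13:13529869-13604542, plus strand), went from 78.9 and 42.4 FPKM to 1.34 and 0.693 FPKM (−4.88, SE 0.32, limma adjusted p = 1.47e-07). Lama1, a laminin alpha chain, went from 23.4 and 18.3 FPKM to 0.576 and 0.274 FPKM (−3.94, SE 0.18, limma adjusted p = 5.66e-09), Lamb2, a beta chain, from 21.6 and 15.2 FPKM to 3.48 and 2.54 FPKM (−2.26, SE 0.23), and Lamc1, the gamma chain, from 87.3 and 53.7 FPKM to 23.0 and 16.5 FPKM (−1.76, SE 0.24). Lamb1, another beta chain, changed the other way, from 11 and 17.1 FPKM to 28.0 and 25.6 FPKM (0.91, limma adjusted p = 0.00996), and its call was lost without EpiLCs replicate 1 (0.85, limma adjusted p = 0.065) and without mESCs replicate 1 (0.62, limma adjusted p = 0.12). The largest rise was Itga3, an integrin that binds laminin, from 8.41 and 4.5 FPKM to 36.8 and 29.7 FPKM (2.24, limma adjusted p = 0.00439, or 1.86 and 0.0561 without mESCs replicate 2). On the upper-quartile scale 6 fell and 4 rose, 5 of the 12 calls were stable, and the rises numbered 1 without EpiLCs replicate 1 and 1 without mESCs replicate 2.

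Of 21 actin and contractile genes 8 rose and 4 fell, with a median of 0.65. Myl9, a myosin light chain, was at 0.319 and 0.0822 FPKM in mESCs and at 11.6 and 27.3 FPKM in EpiLCs (3.98, SE 0.33, limma adjusted p = 1.49e-06). Tpm2, a tropomyosin, was at 3.10 and 3.61 FPKM against 18.7 and 24.2 FPKM (2.36, SE 0.23, limma adjusted p = 5.04e-06), and Vcl, vinculin, at 17.4 and 11.6 FPKM against 41.8 and 39.6 FPKM (1.45, SE 0.27, limma adjusted p = 0.00137). EpiLCs replicate 2 was the higher EpiLC library for Myl9 and Tpm2, and both EpiLC libraries were above both mESC libraries for all 3. Acta1, skeletal alpha-actin, stayed low at 0 and 0.0108 FPKM against 0.850 and 1.30 FPKM (1.04, SE 0.24). Cnn2, a calponin, was at 9.80 and 10.3 FPKM against 20.2 and 39.1 FPKM (1.40, limma adjusted p = 0.0172), and its call was lost without EpiLCs replicate 2 (0.94, limma adjusted p = 0.158), mESCs replicate 1 (1.37, limma adjusted p = 0.0831) or mESCs replicate 2 (1.43, limma adjusted p = 0.0747). Actn1, an alpha-actinin (129 and 89.5 FPKM to 41.6 and 35.2 FPKM, −1.47), and Cald1, caldesmon (20.3 and 18.1 FPKM to 6.10 and 5.78 FPKM, −1.54), fell. Of the 12 calls 9 held with any 1 library left out. The 4 promoters with a CArG box shown above were picked from genes that rose, and the other 2 with the motif, those of Myl6 (0.55) and Actg1 (0.45), belong to genes that were not called.

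Of 11 keratin and intermediate filament genes 1 rose and 3 fell. Krt18, a keratin of simple epithelia, went from 3.93 and 1.16 FPKM to 24.3 and 35.1 FPKM (3.21, SE 0.42, limma adjusted p = 8.26e-05), while its partner Krt8 was not called (14.7 and 8.19 FPKM against 7.02 and 11.7 FPKM). Krt42 went from 19.6 and 24.7 FPKM to 0.779 and 1.42 FPKM (−3.47, SE 0.20) and Lmna, which encodes lamin A and C, from 14.3 and 14 FPKM to 3.51 and 3.95 FPKM (−1.68, SE 0.21).

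Markers of other cell types had low summed levels in EpiLCs. Of 16 fibroblast genes tested 6 rose and 1 fell, with a summed level of 12.0 and 5.09 FPKM in mESCs and 27.7 and 28.4 FPKM in EpiLCs over all 19 listed, 10 of them under 1 FPKM in all 4 libraries. The defining collagens Col1a1 and Col1a2 were under 1 FPKM in all 4, and Acta2 and Dcn were listed at 0 in both mESC libraries and at 0.934 and 1.54 FPKM (Acta2) and 4.48 and 6.10 FPKM (Dcn) in EpiLCs. The part of such cells in the other differences was not tested. Summed levels over the extraembryonic endoderm list were 151 and 134 FPKM in mESCs and 40.4 and 43.9 FPKM in EpiLCs, and those over the trophoblast list 36.9 and 28.8 FPKM against 7.32 and 7.57 FPKM, with 2 falls each and no rise. Gata6 and Sox17 were under 1 FPKM in all 4 libraries. Of 11 tested primitive streak genes 2 rose and 2 fell (18.2% each), and of 6 early neural genes none rose and 2 fell (33.3%). Over all tested genes 12.2% rose and 17.4% fell. Eomes, a T-box factor of the streak, was at 4.30 and 1.84 FPKM in mESCs and 1.80 and 2.09 FPKM in EpiLCs. None of the 16 two-cell-like genes in the table reached the level for a test. Of the 4 streak calls 1 fall was stable, and it could not be tested without mESCs replicate 1 or without mESCs replicate 2. The falls went from 2 to 1 in the endoderm list without EpiLCs replicate 1 or mESCs replicate 1, and in the trophoblast list without EpiLCs replicate 2 or mESCs replicate 1. Of the 2 neural falls 1 was stable, and it could not be tested without mESCs replicate 1.

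Several gene families were counted by the root of the symbol. Klf genes had 1 rise and 6 falls among 14, all 7 stable, and 3 of the falls (Klf2, Klf4 and Klf5) are also on the naive list. S100 and annexin genes, which bind calcium, had 9 falls and no rise among 15 (median −1.21, 6 stable), for example S100a13 (24.4 and 38.0 FPKM to 0.926 and 1.20 FPKM, −3.93) and S100a11 (140 and 179 FPKM to 17.5 and 31.4 FPKM, −2.71). Eph receptors and ephrins, which guide cell contacts, had 2 rises and 5 falls among 17, all stable: Epha4 went from 15.7 and 18.3 FPKM to 0.829 and 0.412 FPKM (−3.48, SE 0.25), Epha1 from 0.211 and 0.235 FPKM to 13.9 and 15.0 FPKM (3.66, SE 0.26), and the ligand Efnb2 from 0.590 and 0.142 FPKM to 18.7 and 7.87 FPKM (3.29, SE 0.45). Of 6 tested Hox genes 4 fell, among them Hoxc13 (6.59 and 5.95 FPKM to 0.280 and 0.323 FPKM, −2.48) and Hoxc12, which was listed at 0 in both EpiLC libraries (8.55 and 5.59 FPKM in mESCs). These 4 falls were stable, although none could be tested without mESCs replicate 1 and not all without mESCs replicate 2.

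Sox genes had 5 rises and 3 falls among 12, with 3 rises left without EpiLCs replicate 1. Besides Sox2 and Sox3, Sox21 went from 8.23 and 19.7 FPKM to 0.239 and 0.171 FPKM (−3.52, SE 0.39) and Sox11, a SoxC factor, from 0.204 and 0.0792 FPKM to 11.5 and 7.6 FPKM (3.18, SE 0.37). Fox genes had 7 rises and 2 falls among 27, with 4 rises left without EpiLCs replicate 1, and Foxi3 went from 0.312 and 0.184 FPKM to 25.5 and 21.8 FPKM (4.30, SE 0.50). These SoxC and Fox genes were near 0 in both mESC libraries. Solute carriers had 45 rises and 56 falls among 222, with 162 of 373 under 1 FPKM in all 4 libraries. Of these 101 calls 57 were stable, and the counts were lowest without mESCs replicate 2 (24 rises and 29 falls). The zinc carrier Slc39a14 went from 0.477 and 0.235 FPKM to 10.5 and 12.1 FPKM (3.18, SE 0.32), and Slc25a20, which carries acylcarnitines into mitochondria and so works with Cpt1a, from 51.0 and 53.1 FPKM to 3.64 and 6.21 FPKM (−3.20, SE 0.42). Zinc finger genes named Zfp had 24 rises and 27 falls among 313, that is 7.67% and 8.63%. Collagens had 3 rises and no fall among 22, led by Col18a1, a basement membrane collagen (22.1 and 16.6 FPKM to 131 and 99.5 FPKM, 2.51). Among tubulins, Tuba3a went from 276 and 275 FPKM to 14.8 and 16.9 FPKM (−4.04), although near-identical alpha-tubulin copies can share its reads, and Tubb4a from 0.0312 and 0.107 FPKM to 8.40 and 7.80 FPKM (3.09).

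RNAs that lack a poly(A) tail moved with the comparison as well, although all libraries are labelled total RNA. Of 6 tested, 4 fell and none rose (2 fell without EpiLCs replicate 1 and 2 without mESCs replicate 2), and summed over the 16 in the table they were at 820 and 3647 FPKM in mESCs and at 34.5 and 55.8 FPKM in EpiLCs. Of 36 tested histone genes 13 fell and none rose, with summed levels of 1996 and 1656 FPKM over all 68 in mESCs and 60.1 and 83.9 FPKM in EpiLCs. Their part in the other differences was not tested. When the libraries were rescaled without these RNAs, 2025 genes rose and 1780 fell.

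Among the 12 largest rises, several genes have not been named so far. Pim2, a kinase that supports survival, went from 9.29 and 7.02 FPKM to 449 and 567 FPKM (5.80), Mmp25, a membrane metalloprotease, from 0.0505 and 0.0709 FPKM to 29.2 and 29.6 FPKM, and Pcdh1, a protocadherin, from 0.649 and 0.0997 FPKM to 47.5 and 31.2 FPKM. Myrf, a transcription factor that is anchored in membranes, went from 0.121 and 0.0105 FPKM to 35.5 and 32.7 FPKM. All 4 were high in both EpiLC libraries. Car4, a carbonic anhydrase, differed between the EpiLC libraries (24.5 and 95.4 FPKM, against 0.0121 and 0 FPKM in mESCs, 5.62, limma adjusted p = 0.0133), and its call was lost without EpiLCs replicate 2 (4.66, limma adjusted p = 0.10) and without mESCs replicate 1 (5.63, limma adjusted p = 0.0651) or replicate 2 (5.61, limma adjusted p = 0.069). The 12 largest falls were led by Khdc3, of the maternal protein complex of the egg (72.6 and 106 FPKM to 0.106 and 0.0883 FPKM, −6.34), and by Tcl1, a coactivator of the kinase Akt (101 and 88.6 FPKM to 0.228 and 0.246 FPKM, −6.27). Fabp3, a fatty acid binding protein, went from 173 and 319 FPKM to 2.42 and 4.93 FPKM. Each of these was lower by far in both EpiLC libraries.

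Levels in 2 other kinds of cells of the series are set beside these values. Day 2 Epiblastoids had about the same time in culture as the 48 h EpiLCs, but the paper described them as similar to EpiLCs of a later stage. Epiblastoids on day 2 were embedded in Matrigel in the same factors as EpiLCs (1 library, so no test), and EpiSCs were grown on inactivated MEFs in 15% KSR, Activin A, bFgf2 and 5 uM XAV939 (2 libraries), so that RNA of feeder cells can be part of their values. Pou3f1 was at 85.6 FPKM in the day 2 Epiblastoids and at 35.7 and 47.7 FPKM in EpiSCs, and Dnmt3b at 724 FPKM and at 121 and 126 FPKM. Zfp42 was at 6.59 FPKM and at 0.172 and 0.0711 FPKM. For these 3 genes the day 2 library lay nearer to the EpiLC libraries than the EpiSC libraries did. Other genes that were low in EpiLCs were higher in EpiSCs: Nid1 at 36.2 and 58.4 FPKM (0.764 FPKM in day 2 Epiblastoids), Fn1 at 207 and 319 FPKM (12.0 FPKM), Cdkn1a at 89.7 and 127 FPKM (28.5 FPKM) and Socs3 at 13 and 16.9 FPKM (1.48 FPKM). Mael was listed at 0 in both EpiSC libraries and was at 15.3 FPKM on day 2, and Dnmt3l was at 0.0416 and 0.0186 FPKM in EpiSCs and at 29.7 FPKM on day 2. The contractile gene Tagln was at 276 and 322 FPKM in EpiSCs and at 1.35 FPKM on day 2, against 2.34 and 4.73 FPKM in EpiLCs.

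**Figure D4:**
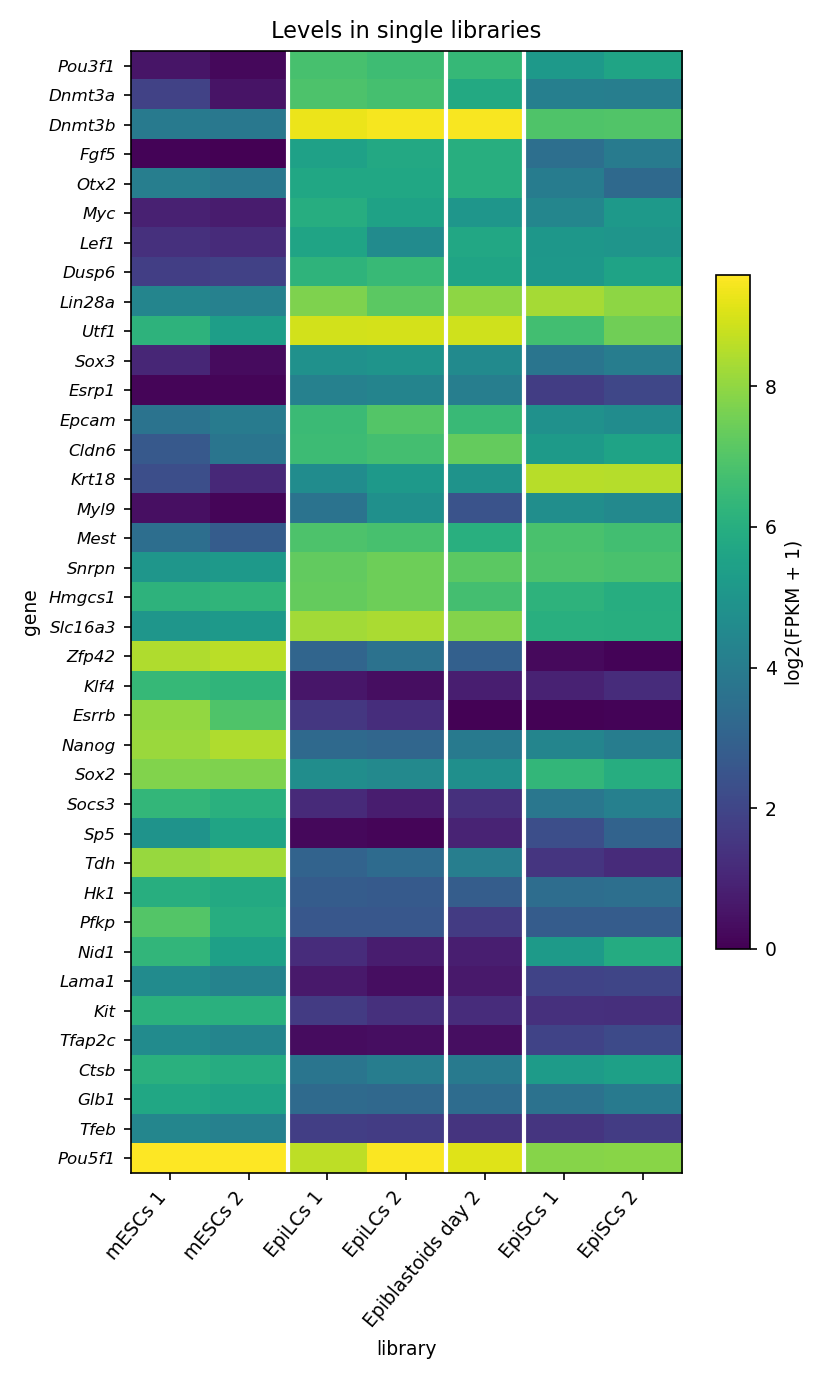
A heat map of 38 named genes (rows) in single libraries of mESCs, EpiLCs, day 2 Epiblastoids and EpiSCs (columns), coloured by log2(FPKM + 1). Pou3f1, Dnmt3a and Dnmt3b are brightest in EpiLCs and day 2 Epiblastoids, and Nid1 is dark there and brighter in mESCs and EpiSCs.

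DNA methylation was measured only in fPSCs, cells grown on in Activin A, bFgf2 and XAV939, so it describes where genes that moved in EpiLCs stand in other cells. The start site was taken as the outermost 5′ end of the annotated gene, which need not be the one in use. That of Ctnnb1, a gene expressed in EpiLCs, had a methylated fraction of 0.91 and an H3K4me3 signal of 0.237 RPKM in fPSCs. Within 1000 bp of the start site, the mean methylated fraction in fPSCs was 0.5 or more in 24.8% of the 1874 genes called lower with at least 5 windows, in 14.8% of the 1360 called higher and in 10.7% of the 7545 not called (13.7% of all). By size of the difference, the share was 38.4% of 146 genes that fell by 3 or more, 26.3% of 1204 that fell by 1 to 3, 15.9% of 816 that rose by 1 to 3 and 12.5% of 72 that rose by 3 or more. This share was higher among the genes that fell than among those that rose, as a description without a test. Single genes within a group differed. At the start sites so taken, Zfp42 (0.846), Esrrb (0.822), Tcl1 (0.955), Il6st (0.945), Hk1 (0.885) and Tdh (0.826) were highly methylated. Klf4 (0.0133), Sp5 (0.0180), Sox2 (0.00111) and Nid1 (0.0624), which also fell, were not. Dusp6 (0.00421) and Myc (0) were unmethylated, while Mael (0.966) and Dnmt3l (0.977), which rose in EpiLCs, were methylated in fPSCs. The median H3K27me3 signal at start sites in fPSCs was 0.306 for genes called higher, 0.398 for genes called lower and 0.183 for genes not called, and that of H3K4me3 3.91, 3.79 and 5.03 (RPKM in bins of 100 bp).

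**Figure D5:**
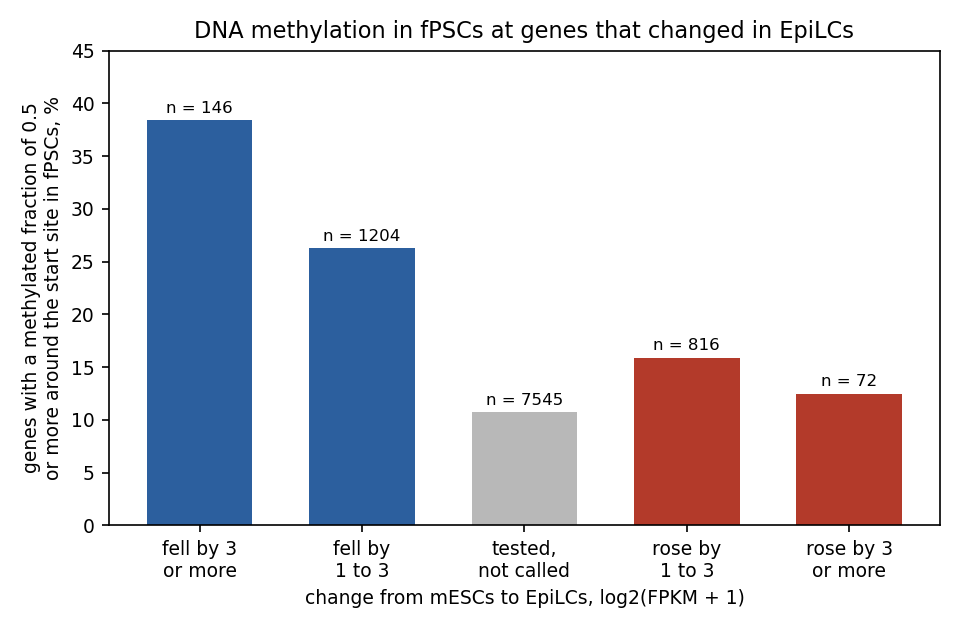
The percentage of genes with a mean methylated fraction of 0.5 or more around the start site (the outermost 5′ end of the annotated gene) in fPSCs (y axis), by the size of the log2 difference of EpiLCs minus mESCs for called genes and for tested genes without a call (x axis), with the number of genes over each bar. It goes from 38.4% of the genes that fell by 3 or more to 12.5% of those that rose by 3 or more, and is 10.7% of genes not called.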

How the data were processed

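The authors trimmed total RNA-seq reads with cutadapt 1.11, aligned them with TopHat2 2.1.1 to Ensembl mouse cDNA (mm9) and deposited FPKM estimated with Cufflinks 2.1.1, which take library size and transcript length into account and leave the depth unknown. For fPSCs, the authors deposited ChIP-seq signal as RPKM in 100 bp bins and bisulfite sequencing as the methylated fraction in 100 bp windows, without coverage. The chromatin files do not tell whether replicates were pooled.

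Here, 4 of 23608 entries with repeated names were left out. log2(FPKM + 1) was fitted with limma 3.58.1 in R 4.3.3 (empirical Bayes with trend) in 1 model over mESCs (2), EpiLCs (2), EpiSCs (2) and 7 long-term fPSC libraries, which share the estimate of the spread. Genes with at least 1 FPKM in at least 2 of the 13 libraries were tested, and were called where the adjusted p was under 0.05 and the difference 1.5-fold or more. The fit was tested on simulated data. The comparison, its 44 gene lists and 38 families, and the tests were chosen with earlier results of these data known. Named genes are the 3 markers, up to 4 called members per list and direction with the largest difference, members whose role is described, and the 12 largest rises and falls. Genes named for a call that was lost or missing, the family examples and levels in EpiSCs and Epiblastoids include genes chosen after their values were seen. Some genes chosen by this rule are not reported here. No set test was run. Positions are of NCBIM37 (mm9) and promoter sequences of GRCm38.p6, which were not mixed. A read count model could not be fitted to FPKM.

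Alternatives were a pseudocount of 0.1, no filter or one of 5 FPKM, upper-quartile scaling, scaling without RNAs lacking a poly(A) tail, only the 4 libraries compared, only the first deposit, robust empirical Bayes, the replicate number as a block, a fold change of 2, and leaving out each library. Python 3.11.15, pandas 2.3.3, numpy 2.4.6 and matplotlib 3.10.9 were used.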

Additional observations from a re-analysis of the deposited data

Results flagged for a closer look

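Zfp42 in the 7 long-term fPSC libraries, which entered the fit but not the comparison, was flagged because its highest library stood apart from the others. The gap to the nearest library was 0.597 of the whole range. All 7 libraries were between 0 and 0.0571 FPKM, with a median of 0.0179, so the values differ by a small amount at the bottom of the scale. About 1 in 20 groups is flagged by chance.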

How the results depend on the processing

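Of 273 called genes among the 665 named or listed, none changed direction under any alternative run. Calls of these genes that were lost numbered 0 with a filter of 5 FPKM or only the first deposit, 11 under upper-quartile scaling, 24 with only the 4 libraries, and 53 to 71 with 1 library left out. All genes called numbered 3706, and 2291 to 3019 with 1 library left out, the rises 967 to 1154 (1523 in full) and the falls 1262 to 1936 (2183 in full). A fold change of 2 left 991 rises. The other alternatives moved each of these counts by less than 1.5 times. Of 81 list medians, 43 moved beyond the spread between replicates in at least 1 alternative. Among the 32 of at least 0.5 in size, 1 changed sign, that of the Rhox genes, from −1.09 to 1.36 under the filter of 5 FPKM, which left fewer genes tested. Smaller medians also changed sign, such as Nodal and Activin (−0.09 to 0.03) and Polycomb (−0.10 to 0.04) under upper-quartile scaling. With the replicate number as a block, 1457 genes rose and 2118 fell. Same-numbered libraries did not deviate together in all pairs of groups (correlations of 0.204, −0.199 and −0.134), so the numbers were not taken to pair them. With 2 libraries a group and FPKM without counts, the error of low genes cannot be separated from counting error.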

Other observations

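Of the named or listed genes, 6 differed by 1.5 or more on the log2 scale without a call in the joint fit, and all 6 were called by limma fitted to the 4 libraries alone. Beside Pmaip1 and Sox15 these were Grb10, an adaptor of growth factor receptors (2.87, limma adjusted p = 0.0549 and 0.000608), Egr1 (2.51, 0.0604 and 0.024), Hexa, a lysosomal enzyme (−1.91, 0.0835 and 0.00149), and Ifitm3, an interferon-induced membrane protein (−1.75, 0.0694 and 0.00374).

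By chromosome, 83 of 427 tested genes on the X chromosome rose (19.4%), and 18.1% of those on chromosome 3, against 12.2% of all tested genes. Falls were called in 20.4% of the genes on chromosome 11 and 20.3% of those on chromosome 6, against 17.4% of all.

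In a scan of 417 symbol roots with at least 5 tested genes, 17 had at least 60% of them called in 1 direction. Of these, named after the values were seen, Xlr genes (7 of 9 lower), Ly genes (6 of 8), Rhox genes (6 of 8), Serpinb genes (5 of 6), Kank genes (4 of 5) and Plekhg genes (4 of 5) were mostly lower. The Rhox falls numbered 3 without mESCs replicate 1 and 2 without mESCs replicate 2. Xlr, Rhox and Serpinb genes lie in clusters of near-identical copies that can share reads, so these are uncertain counts. In the 5 tested Nap, Pcgf, Tceal and Xpo genes each, 3 were higher.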
